A study of Homo sapiens with 8 samples.

Results

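The genes described here encode proteins of the splicing machinery: the snRNP proteins (gene symbols that start with SNRP or SNRNP), the SF3A and SF3B complexes, the PRPF proteins, the U2AF subunits and the hnRNPs. Of the 10105 genes in the count table, 66 have a symbol with one of these beginnings. HNRNPA1P10, a name made of its parent gene and a P, and the hyphenated readthrough name HNRNPUL2-BSCL2 were left out, which gave 64 members. Total mRNA (RNA-Seq) and ribosome-protected fragments (RPF, by Ribo-Seq) were measured in WT HEK293T cells, an established human embryonic kidney line, and in an XRN1-null line derived from it by CRISPR/Cas9 editing of a coding exon of XRN1. Whether the XRN1-null line is a single clone was not given in the sources used here, so the comparison is that of 2 lines. No further treatment was named. Cells were grown for 24 h on 15 cm dishes, and 2 biological replicates of each genotype were sequenced by each assay, which gave 8 libraries.

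XRN1 is the main cytoplasmic exonuclease that degrades decapped mRNA from the 5′ end. In the nucleus, introns are removed by the spliceosome, which is built from small nuclear RNAs bound to proteins. Each of the U1, U2, U4 and U5 snRNAs carries a ring of 7 Sm proteins and its own specific proteins. U1 snRNP binds the 5′ splice site, U2AF and U2 snRNP with SF3A and SF3B recognise the 3′ splice site and the branch point, and the U4/U6.U5 tri-snRNP with PRPF proteins completes the catalytic machine. A minor spliceosome with U11 and U12 snRNPs removes a rare class of introns. The hnRNPs are abundant nuclear proteins that coat nascent RNA and influence the choice of splice sites, and several splicing factors are known to limit their own mRNA through alternative splicing that leads to nonsense-mediated decay (NMD).

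XRN1 itself served to test the sample names. Its RNA-Seq counts were 1187 and 1084 for WT against 10655 and 9834 for XRN1-null, so its mRNA was higher in both edited libraries (log2 change 3.01). Its Ribo-Seq counts were 66 and 217 for WT against 91 and 59 for XRN1-null. After scaling these footprints came to 34.4 and 49.9 CPM for WT against 22.6 and 18.4 CPM for XRN1-null, so both edited libraries were lower in footprints, with a log2 change of -1.08 that did not pass the threshold used below (FDR of edgeR 0.00641). The TE of XRN1, footprints relative to mRNA, fell with a log2 change of -4.09 (FDR of edgeR 1.66e-06), a call kept in every alternative run. Of the HEK293T markers, VIM, NEFM, KRT8 and KRT18 were present in the table and PAX2 was not analysed here. Among markers of other cells, the fibroblast collagen COL1A1 averaged 14.6 CPM in WT mRNA libraries against 37.1 CPM in XRN1-null ones, and ALB, PTPRC and CD34 were not analysed here. The part of this difference between the lines in the results below was not tested.

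RNA-Seq totals ranged from 33757487 to 38145433 counts per library and Ribo-Seq totals from 1921641 (WT replicate 1) to 4399542 (WT replicate 2). The 64 members held between 1.69% and 1.96% of the RNA-Seq counts and between 2.12% and 2.68% of the Ribo-Seq counts. Each member had at least 10 counts in every library, and the lowest counts were 187 in RNA-Seq and 12 in Ribo-Seq. CPM are counts per 1000000 counts of the library total, after scaling with the TMM factors of edgeR within each assay. Log2 fold changes are XRN1-null over WT. FDR denotes the Benjamini-Hochberg adjusted p-value of edgeR's quasi-likelihood test over all 10105 genes, and a gene was called at an FDR below 0.005. Translational efficiency (TE) is RPF over mRNA. A TE change is the assay by genotype interaction term fitted to all 8 libraries.

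The WT RNA-Seq libraries stood apart from each other for these genes. The mRNA levels of 25 of the 64 members (39.1%) differed by more than 0.25 log2 units between the WT replicates, against 14.8% of all genes, and 0 did so between the XRN1-null replicates, against 2.39% of all genes. The median member was 0.15 log2 higher in WT replicate 2 than in WT replicate 1, and the extremes were HNRNPU (0.64) and PRPF39 (-0.30). In Ribo-Seq the median member was 0.20 log2 higher in WT replicate 2, and PRPF3 was 1.06 higher.

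At the mRNA level, 12 members rose (18.8%) and 14 fell (21.9%) in XRN1-null cells, while 22.9% of all genes were called higher and 23.2% were called lower. The median change of the members was -0.02 on the log2 scale, beside -0.01 for all genes. These shares were close to those of the whole table. By role the counts were as follows, and differences between roles were not tested. The Sm ring had 0 members that rose and 6 of 7 that fell, U2 snRNP and SF3 had 2 that rose and 3 that fell of 11, and the tri-snRNP and PRPF group had 3 that rose and 1 that fell of 13. The U1 and the U11/U12 proteins had 1 of each among 5 and 3 members. In U2AF 1 of 4 members rose, and in the hnRNPs 4 rose and 2 fell of 21. The size of the changes depended on single libraries. Without WT RNA-Seq replicate 1 the median change of the members was -0.11, and without WT RNA-Seq replicate 2 it was 0.12. Without XRN1-null RNA-Seq replicate 1 it was 0.03, and without XRN1-null RNA-Seq replicate 2 it was -0.04. Each such fit left 1 sample of a genotype and took the spread from the other genotype. Without a WT library the spread came from the XRN1-null pair, whose replicates lay closer together for these genes. Of the 26 members called, 0 changed sign in any of these fits. For each of them both XRN1-null libraries lay on the same side of both WT libraries, so leaving out a library could hardly reverse the sign.

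**Figure D1:**
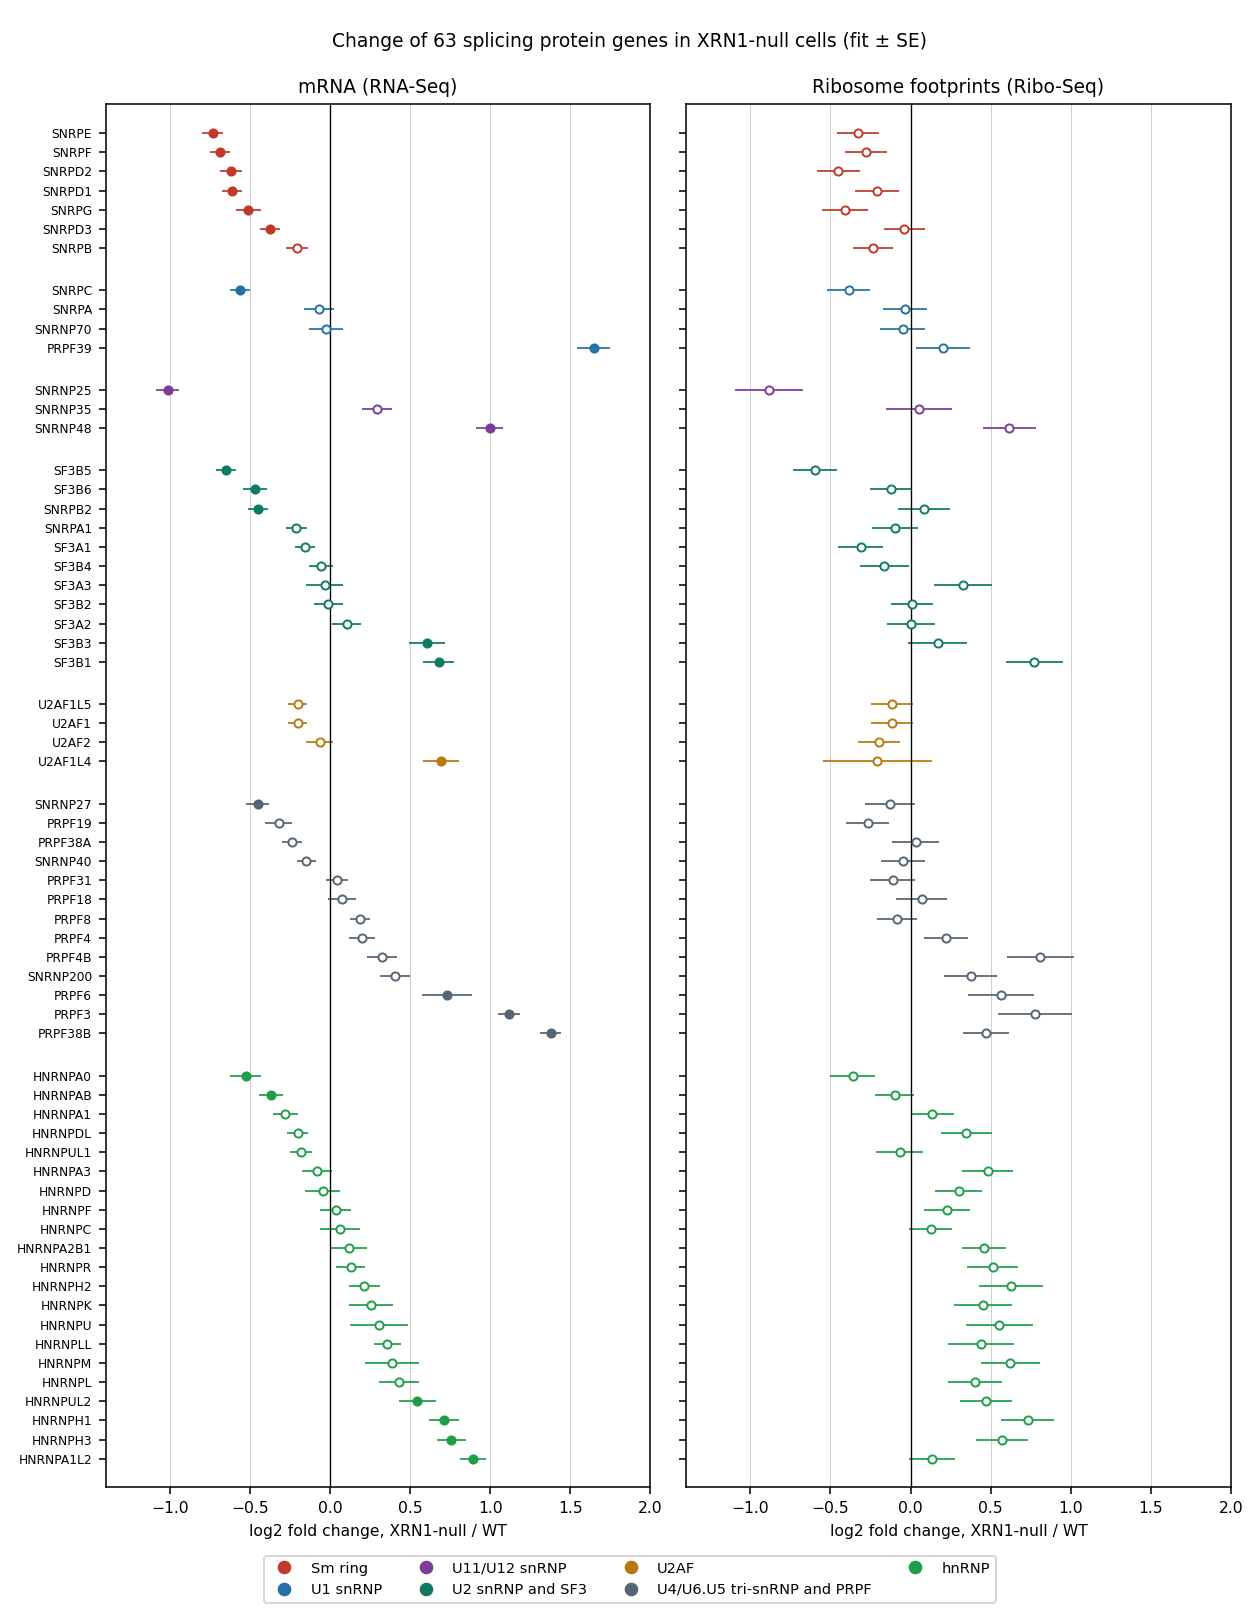
Log2 fold change of XRN1-null over WT (horizontal axis) for 63 of the 64 members, grouped and coloured by role, for mRNA (left) and ribosome footprints (right). Points are the fitted values and bars ± 1 SE over 2 replicates per genotype, and filled points mark an FDR below 0.005. Filled points lie on both sides of 0 for mRNA, with the 6 Sm ring genes all on the left, and no point is filled for footprints.

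The Sm proteins form the ring that is common to the snRNPs of both spliceosomes. The mRNA of all 7 measured members was lower in both XRN1-null libraries than in both WT libraries, a separation that 43.7% of all genes showed in this direction. SNRPE mRNA was at 305 and 282 CPM in the WT libraries (replicates 1 and 2) and at 176 and 177 CPM in the XRN1-null libraries, a log2 change of -0.73 ± 0.07 (SE, n = 2 per genotype; FDR of edgeR 7.94e-05). SNRPF mRNA was at 180.3 and 179.9 CPM in WT against 112.9 and 110.7 CPM in XRN1-null cells (-0.69 ± 0.06, FDR of edgeR 6.59e-05). The groups did not overlap for either gene, and the replicates of each genotype lay closer to each other than to the other genotype.

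SNRPD2 mRNA was at 320.2 and 290.5 CPM in WT against 198.5 and 199.6 CPM in XRN1-null cells, and its log2 change was -0.62 ± 0.07. SNRPD1 mRNA was at 250.2 and 240.5 CPM in WT against 161 CPM in both XRN1-null libraries, with a log2 change of -0.61 ± 0.06. SNRPG (-0.51) and SNRPD3 (-0.38) also passed the threshold. SNRPB, the Sm protein with the highest mRNA per length, was at 500.2 and 545 CPM in WT against 451 and 455 CPM in XRN1-null cells, and its change of -0.21 ± 0.07 did not pass (FDR of edgeR 0.0275). Without XRN1-null RNA-Seq replicate 2 the calls of SNRPG and SNRPD3 were lost, and without XRN1-null RNA-Seq replicate 1 that of SNRPD3.

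**Figure D2:**
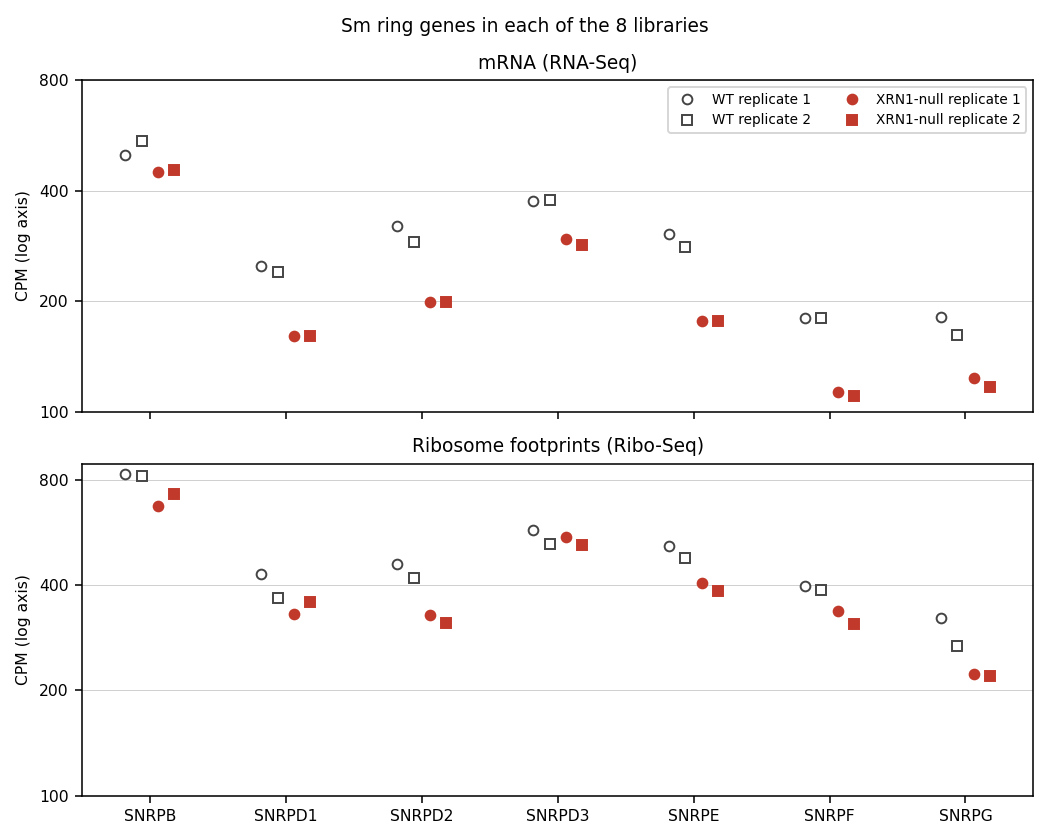
CPM on a log axis of the 7 Sm ring genes in each of the 4 RNA-Seq libraries (top) and the 4 Ribo-Seq libraries (bottom). Open symbols are WT and filled symbols XRN1-null libraries, with circles for replicate 1 and squares for replicate 2. The filled symbols lie below the open ones for all 7 genes in mRNA and for 6 of 7 genes in footprints, where SNRPD3 overlaps.

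Footprints on the Sm ring genes had negative fitted changes for all 7, from -0.45 (SNRPD2) to -0.04 (SNRPD3), with a median of -0.28 beside -0.0033 for all genes, and 0 passed the FDR threshold. SNRPD2 footprints were at 458 and 418 CPM in WT against 328 and 312.5 CPM in XRN1-null cells (FDR of edgeR 0.0406). For 6 of the 7 genes both XRN1-null libraries lay below both WT libraries, a separation shown by 32.3% of all genes. At an unadjusted p of edgeR below 0.05, 0 of the 7 were higher and 3 lower in RPF, against 16.2% and 16.8% of all genes. The fitted TE change was positive for 6 of 7, with a median of 0.34 beside 0.01 for all genes. In TE edgeR called 0 of the 7 (0.0495% higher and 1.78% lower over all genes), and at an unadjusted p below 0.05, 4 were higher and 0 lower (8.76% and 14.6%). The median RPF change of the 7 was -0.31 without WT Ribo-Seq replicate 2 and -0.26 without WT Ribo-Seq replicate 1.

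The assembly of Sm proteins onto snRNAs in the cytoplasm is carried out by the SMN complex with the GEMIN proteins and by a methylosome that contains CLNS1A and WDR77. Of 13 measured genes of this assembly list, 0 rose and 5 fell in mRNA, which were CLNS1A (-0.72), WDR77 (-0.61), GEMIN6 (-0.60), GEMIN7 (-0.44) and GEMIN2 (-0.38), against 22.9% of all genes that rose and 23.2% that fell. The list had a median of -0.29, and its rows for SMN1 and SMN2 held identical fitted values. None of the 13 was called by edgeR in RPF (0.633% higher and 1.14% lower over all genes) or in TE (0.0495% and 1.78%). At an unadjusted p of edgeR below 0.05, 0 were higher and 4 lower in RPF, against 16.2% and 16.8% of all genes, and 0 were either higher or lower in TE.

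The promoters of the Sm ring genes are shown because 6 of the 7 fell in mRNA. Sequences of the start regions came from RefSeq on GRCh38.p14 and were available for 55 of the 64 members, and the 250 bases before the start were searched on both strands for short motifs. The core CCGGAAG of the site bound by ETS-family factors, or its reverse complement CTTCCGG, was present in 21 of the 55 members (38.18%), against 17.84% of the 7897 genes of the table with a promoter sequence. It was present in 4 of 6 Sm ring genes (SNRPB, SNRPD2, SNRPE and SNRPG) and in 3 of 20 hnRNP genes. The last 100 bases before the start of 4 Sm ring genes read 5′ to 3′ on the strand of the gene, with the ETS core in capitals:
SNRPB (chr20:2470790-2470889, minus strand): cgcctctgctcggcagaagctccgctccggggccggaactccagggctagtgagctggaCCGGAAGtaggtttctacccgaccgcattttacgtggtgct
SNRPD2 (chr19:45692317-45692416, minus strand): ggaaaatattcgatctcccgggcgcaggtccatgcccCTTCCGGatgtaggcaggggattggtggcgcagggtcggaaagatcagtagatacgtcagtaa
SNRPG (chr2:70293459-70293558, minus strand): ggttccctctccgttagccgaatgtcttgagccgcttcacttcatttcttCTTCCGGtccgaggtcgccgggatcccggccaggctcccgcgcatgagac
SNRPF (chr12:95858852-95858951, plus strand): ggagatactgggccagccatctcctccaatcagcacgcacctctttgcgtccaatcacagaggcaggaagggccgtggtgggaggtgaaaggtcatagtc
SNRPF is shown as a called gene without these letters in its window, while SNRPB, whose mRNA was not called, holds them.

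Other motifs were counted in the same windows. The letters CCAAT of the CCAAT box was present in 27 of 55 members (49.09%) against 36.58% of genes, and in 13 of 20 hnRNP genes. CACGTG, an E-box, was present in 8 members (14.55%) against 9.434%, 6 of them hnRNP genes. The GC box GGGCGG was present in 65.45% of members against 70.0%, and TATAAA in 7.273% against 4.571%. These matches are descriptions of the windows and carry no test.

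Among the U1 proteins, SNRPC, which helps U1 to hold the 5′ splice site, fell and PRPF39, a U1-associated protein of alternative splicing, rose. SNRPC mRNA was at 202 and 196 CPM in WT against 132 and 137.5 CPM in XRN1-null cells, a change of -0.56 ± 0.06 (FDR of edgeR 0.000185). SNRNP70, which binds U1 snRNA directly, had the highest level per length of the group after SNRPC, and its change was -0.03 ± 0.10. SNRPA (-0.07) was not called either.

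PRPF39 had the largest mRNA rise of the 64 members. Its mRNA was at 49.2 and 40.0 CPM in the WT libraries against 144 and 135 CPM in the XRN1-null libraries, a 3.13-fold rise (log2 1.65 ± 0.10, FDR of edgeR 1.69e-05). Its footprints stayed between 25.04 and 32.8 CPM, with 29.7 and 25.04 CPM in WT against 29.1 and 32.8 CPM in XRN1-null cells (0.20 ± 0.17, FDR of edgeR 0.434). The mRNA groups were far apart while the footprint groups overlapped. The log2 TE was -0.73 and -0.68 in WT against -2.31 and -2.04 in XRN1-null cells, and the fitted TE change was -1.44 ± 0.21 (FDR of edgeR 0.00182), a call lost in 4 of 8 fits that each lacked a library, with an FDR of up to 0.0324. PRPF39 lies at chr14:45553310-45585485 on the plus strand of GRCh37, and in GENCODE release 44 it overlaps SNORD58 and SNORD127 on its own strand and FKBP3 on the other. Whether the counting used strand was not given in the sources used here, so reads of PRPF39 and of genes that overlap it cannot be told apart.

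The U11/U12 proteins of the minor spliceosome moved in opposite directions. SNRNP25 had the largest mRNA fall of the 64 members: 115 and 104 CPM in WT against 53.7 and 54.8 CPM in XRN1-null cells, a 2.02-fold decrease (-1.01 ± 0.07, FDR of edgeR 2.69e-05). Its footprints were at 21.4 and 20.7 CPM in WT against 12.2 and 10.3 CPM in XRN1-null cells (-0.88 ± 0.21), which did not pass (FDR of edgeR 0.0177) although both XRN1-null libraries lay below both WT libraries. SNRNP48 mRNA was at 63.2 and 54.6 CPM in WT against 121 and 114.5 CPM in XRN1-null cells, a 2.00-fold rise (1.00 ± 0.08), and its footprints went from 26.6 and 34.2 to 46.9 and 49.3 CPM (0.62 ± 0.16, FDR of edgeR 0.0281). SNRNP35 changed by 0.29 ± 0.10 in mRNA and was not called (FDR of edgeR 0.0278). Of 4 other genes of the minor spliceosome, RNPC3 rose (0.76) and ZCRB1 fell (-0.33).

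In U2 snRNP and SF3, SF3B5, SF3B6 and SNRPB2 fell and SF3B1 and SF3B3 rose. SF3B5 mRNA was at 141 and 136 CPM in WT against 89.1 and 87.8 CPM in XRN1-null cells (-0.65 ± 0.06, FDR of edgeR 9.42e-05). Footprints on SF3B5 were at 207 and 197 CPM in WT against 136 and 131 CPM in XRN1-null cells, a change of -0.59 ± 0.14 that did not pass (FDR of edgeR 0.0154). SF3B6, the protein that contacts the branch point adenosine, fell by 0.47 on the log2 scale in mRNA, and SNRPB2, which binds U2 snRNA, fell by 0.45. Both calls were lost when either XRN1-null RNA-Seq library was left out. SF3B1, the largest subunit of SF3B a gene often mutated in myelodysplasia, was at 219 and 268.5 CPM in WT against 391 and 389.5 CPM in XRN1-null cells (0.68 ± 0.10). SF3B3 changed by 0.61 ± 0.11, and its call was lost without either XRN1-null RNA-Seq library. SF3A1, SF3A2, SF3A3, SF3B2, SF3B4 and SNRPA1 were between -0.21 and 0.10 and were not called. Among 12 other U2-associated genes, 3 rose (SUGP1 1.43, ZRSR2 0.88 and SF1 0.50) and 2 fell (PHF5A -0.58 and RBM17 -0.50).

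The U2AF subunits bind the polypyrimidine tract and the AG of the 3′ splice site. U2AF1 mRNA was at 226 and 233 CPM in WT against 199.7 and 199.9 CPM in XRN1-null cells, a change of -0.20 ± 0.06 that did not pass (FDR of edgeR 0.0197). The row of U2AF1L5 held counts that differed from those of U2AF1 by at most 9 reads in any library and by 0 in Ribo-Seq, so both rows hold essentially 1 set of reads, and with them counted as 1 the calls were unchanged over 63 members, with a median of -0.01. U2AF1L4, a shorter relative of U2AF1, was at 6.07 and 5.69 CPM in WT against 9.67 and 9.32 CPM in XRN1-null mRNA libraries (0.69 ± 0.11, FDR of edgeR 0.00117). Its footprints were at 6.25 and 5.51 CPM in WT against 4.72 and 5.31 CPM in XRN1-null cells (-0.21 ± 0.34), on 12 counts in the shallowest library. The call of U2AF1L4 in mRNA was lost without either XRN1-null RNA-Seq library. U2AF2 changed by -0.07 ± 0.09.

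Among the tri-snRNP and PRPF genes, PRPF38B, PRPF3 and PRPF6 rose. PRPF38B mRNA was at 102 and 104 CPM in WT against 272.5 and 263 CPM in XRN1-null cells, a 2.60-fold rise (1.38 ± 0.06, FDR of edgeR 5.92e-06). Its footprints were at 58.3 and 66.8 CPM in WT against 88.4 and 87.1 CPM in XRN1-null cells, a change of 0.47 ± 0.14 (FDR of edgeR 0.0433). The mRNA groups were separated by more than the footprint groups, and the fitted TE change was -0.91 ± 0.14 (FDR of edgeR 0.00275), a call lost in 7 of 8 fits that each lacked a library, with an FDR of up to 0.0308. PRPF38B lies at chr1:109234932-109245550 on the plus strand of GRCh37 and overlaps no other annotated gene.

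PRPF3, a U4/U6 protein mutated in retinitis pigmentosa, was at 45.5 and 48.8 CPM in WT against 101 and 104 CPM in XRN1-null mRNA libraries (1.12 ± 0.07, FDR of edgeR 1.55e-05). Footprints on PRPF3 were at 26.04 and 54.4 CPM in the WT libraries against 71.5 and 76.8 CPM in the XRN1-null libraries, so the WT replicates differed from each other by more than WT replicate 2 did from the XRN1-null libraries. PRPF6, which bridges U5 and U4/U6, was at 51.1 and 74.8 CPM in WT against 100.3 and 108 CPM in XRN1-null mRNA libraries (0.73 ± 0.16, FDR of edgeR 0.00435), and this call was lost without XRN1-null RNA-Seq replicate 2. SNRNP27 was the only gene of the group that fell (-0.45 ± 0.07), and its call was lost without either XRN1-null RNA-Seq library. PRPF19, the ubiquitin ligase at the centre of the Prp19 complex, had the highest mRNA per length of the group and changed by -0.32 ± 0.08 (FDR of edgeR 0.0114). PRPF8, the catalytic core protein of U5, changed by 0.19 ± 0.06, and PRPF31, PRPF18 and PRPF4 by 0.04, 0.07 and 0.20, none of them called. PRPF38A (-0.24), SNRNP40 (-0.15), PRPF4B (0.32) and the U5 helicase SNRNP200 (0.40, FDR of edgeR 0.00661) were not called either. PRPF38A was called lower by the likelihood ratio test, and PRPF19 by this test and by DESeq2. PRPF4B and SNRNP200 were called higher in mRNA by DESeq2 and by the likelihood ratio test, and SNRNP200 also with RLE factors, library totals and thinned counts. PRPF4B, a kinase of the tri-snRNP, had the largest positive fitted footprint change of the 64 members: 41.1 and 74.2 CPM in WT against 102 and 110.2 CPM in XRN1-null libraries (0.81 ± 0.21, FDR of edgeR 0.0234).

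Of 10 other tri-snRNP genes, 3 rose (SART1 0.85, SART3 0.73 and USP39 0.64) and 4 fell (CD2BP2 -0.68, PPIH -0.56, SNU13 -0.50 and ZMAT2 -0.29). Of 16 genes of the Prp19 complex and related proteins, 4 rose and 3 fell. Of 6 helicases of the catalytic and release steps, 2 rose (DHX8 0.83 and DHX16 0.76) and 0 fell, and of 5 core genes of the exon junction complex 1 rose and 3 fell. Among these, MAGOHB had the largest fall of the pathway genes: 48.4 and 44.8 CPM in WT against 25.8 and 26.5 CPM in XRN1-null mRNA libraries (-0.83). Over the 77 pathway genes outside the members, 16 rose (20.8%) and 18 fell (23.4%) in mRNA, close to the 22.9% and 23.2% of all genes, which are also the background of the smaller lists. In RPF edgeR called 0 of the 77 at the FDR threshold (0.633% higher and 1.14% lower over all genes), with 23 higher and 7 lower at an unadjusted p below 0.05 (16.2% and 16.8%). In TE 0 were called higher and 1 lower (0.0495% and 1.78%).

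The TE decrease among the pathway genes was that of PTBP2, the neuronal relative of the splicing repressor PTBP1. PTBP2 mRNA was at 24.5 and 23.3 CPM in WT against 82.8 and 79.4 CPM in XRN1-null cells (1.76), and its footprints were at 15.6 and 25.3 CPM in WT against 25.8 and 26.2 CPM in XRN1-null cells. The fitted TE change was -1.52 (FDR of edgeR 0.0014). This call was lost in 4 of 8 fits that each lacked a library, namely without WT Ribo-Seq replicate 2 (-1.02, FDR of edgeR 0.0412), without either XRN1-null Ribo-Seq library (FDR of edgeR 0.0251 and 0.0175) and without XRN1-null RNA-Seq replicate 1 (FDR of edgeR 0.0065). PTBP1 rose by 0.59 in mRNA.

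For TE, 0 of the 64 members were called higher, against 0.0495% of all genes, and 2 were called lower (3.12%), PRPF39 and PRPF38B, against 1.78% of all genes. At an unadjusted p of edgeR below 0.05, 9 members had a higher and 4 a lower TE, against 8.76% and 14.6% of all genes. DESeq2 and edgeR's likelihood ratio test each called 0 higher and 3 lower, and the shares of all genes they called are not given here. Neither call held in every fit with a library left out. PRPF39 was called in 4 of 8 such fits, with a change between -1.61 and -1.29 over all 8, and PRPF38B in 1 of 8, with a change between -0.98 and -0.78. The PRPF39 call was lost without XRN1-null RNA-Seq replicate 1, WT Ribo-Seq replicate 2 or either XRN1-null Ribo-Seq library. The PRPF38B call was lost without any library other than WT Ribo-Seq replicate 1.

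**Figure D3:**
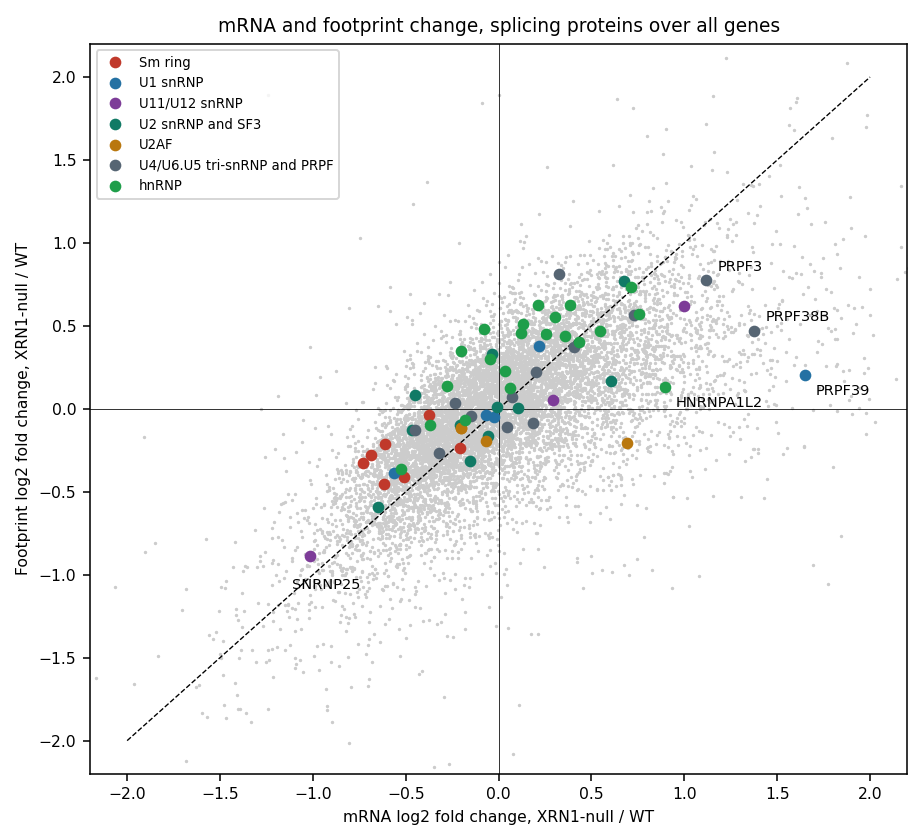
Log2 fold change of footprints (vertical axis) against that of mRNA (horizontal axis), XRN1-null over WT, for the 64 members (coloured by role) and all genes of the table (grey). The dashed line marks equal change, and 82 genes lie outside the axes, which end at 2.2. PRPF39 (1.65 in mRNA and 0.20 in footprints) and PRPF38B (1.38 and 0.47) lie below the line, and SNRNP25 (-1.01 and -0.88) lies near it.

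Footprint counts of the members followed the mRNA in direction for most genes, with fewer calls. In RPF, 0 members were called higher, against 0.633% of all genes, and 0 were called lower, against 1.14% of all genes. At an unadjusted p of edgeR below 0.05, 20 of the 64 members were higher and 8 lower, against 16.2% and 16.8% of all genes. The likelihood ratio test of edgeR called 4 higher (HNRNPH1, PRPF4B, SF3B1 and SNRNP48) and 2 lower (SF3B5 and SNRNP25), and DESeq2 called 0. The shares of all genes called by these tests are not given here, so the counts describe the members only. Across the 63 distinct members the Spearman correlation of the footprint change with the mRNA change was 0.78, and it was 0.69 across all genes. Genes are not independent replicates, and the points of each assay share the same 4 libraries.

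Footprints on the hnRNP genes mostly had positive fitted changes. The RPF change was positive for 18 of 21 genes, with a median of 0.44 beside -0.0033 for all genes, and 0 passed the FDR threshold. At an unadjusted p of edgeR below 0.05, 12 of the 21 were higher and 1 lower, against 16.2% and 16.8% of all genes. Both XRN1-null libraries lay above both WT libraries for 15 of 21 (71.4%), a separation shown by 32.1% of all genes. The size of this depended on the WT libraries, of which replicate 1 is the shallowest. The median RPF change was 0.17 when replicate 1 was left out, and 0.72 when WT Ribo-Seq replicate 2 was left out. The mRNA median of the hnRNPs was 0.13, and it was 0.02 without WT RNA-Seq replicate 1 and 0.32 without WT RNA-Seq replicate 2. Other pathway lists also had positive RPF medians, among them the catalytic and release helicases (0.46), Prp19 complex genes (0.28) and hnRNP-related RNA-binding genes (0.27). The RPF medians of the snRNP assembly (-0.06), other U11/U12 (-0.11) and exon junction (-0.15) genes were negative.

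**Figure D4:**
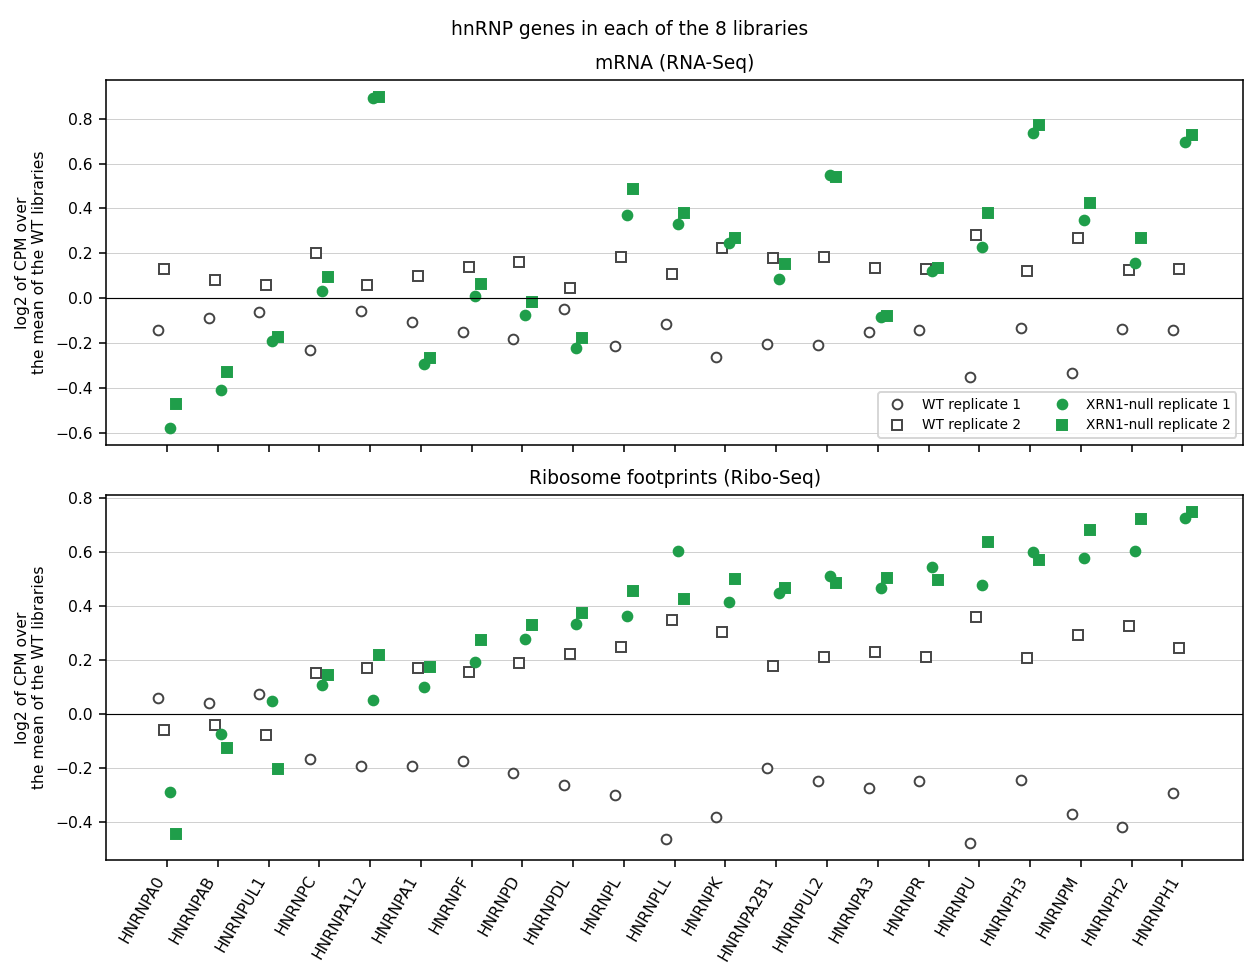
Log2 of CPM over the mean of the WT libraries for the 21 hnRNP genes in each of the 4 RNA-Seq libraries (top) and the 4 Ribo-Seq libraries (bottom), ordered by the fitted footprint change. Open symbols are WT and filled symbols XRN1-null libraries, with circles for replicate 1 and squares for replicate 2. In the lower panel the open circles lie below the open squares for 18 of the 21 genes, and the filled symbols lie above both for 15.

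HNRNPH1 and HNRNPH3 rose in mRNA and had the same direction in footprints. HNRNPH1, which binds G-rich splicing elements, was at 310.2 and 375 CPM in WT against 556 and 568.5 CPM in XRN1-null mRNA libraries (0.71 ± 0.09, FDR of edgeR 0.000393). Footprints on HNRNPH1 were at 408 and 592 CPM in WT against 827 and 841 CPM in XRN1-null cells (0.73 ± 0.16, FDR of edgeR 0.0141). HNRNPH3 was at 175 and 209 CPM in WT against 319.5 and 328 CPM in XRN1-null mRNA libraries (0.76 ± 0.09), and its footprints changed by 0.57 ± 0.16. HNRNPH2, an X-linked gene with a coding sequence close to that of HNRNPH1, changed by 0.21 ± 0.10 in mRNA and by 0.63 ± 0.20 in footprints and was not called. HNRNPUL2 rose by 0.55 ± 0.12 in mRNA, a call lost without either XRN1-null RNA-Seq library. Its counts were 76.15% to 87.7% of those of the readthrough HNRNPUL2-BSCL2 in RNA-Seq. The 2 genes overlap on the same strand, and the share of reads counted in both rows was not tested.

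HNRNPA0 and HNRNPAB fell in mRNA. HNRNPA0, an AU-rich element binding hnRNP without introns, was at 259 and 314 CPM in WT against 192 and 206.5 CPM in XRN1-null cells (-0.53 ± 0.10, FDR of edgeR 0.00215). HNRNPAB changed by -0.37 ± 0.08. Both calls were lost when either XRN1-null RNA-Seq library was left out. HNRNPA1 had the most abundant hnRNP mRNA in WT cells and was not called by the quasi-likelihood test, while DESeq2 and the fit on thinned counts called it lower. HNRNPA2B1 and HNRNPC were next in CPM and were not called either: HNRNPA2B1 was at 1213 and 1582 CPM in WT against 1483 and 1553 CPM in XRN1-null cells (0.12 ± 0.11), and HNRNPC at 822 and 1109 CPM in WT against 987 and 1031 CPM in XRN1-null cells (0.06 ± 0.13). For both genes the XRN1-null libraries lay between the WT replicates. The other hnRNPs that were not called in mRNA lay between -0.28 (HNRNPA1) and 0.43 (HNRNPL), with HNRNPUL1 at -0.18, HNRNPA3 at -0.08, HNRNPF at 0.04, HNRNPR at 0.13, HNRNPK at 0.26, HNRNPU at 0.31, HNRNPLL at 0.36 and HNRNPM at 0.39. HNRNPLL was called higher with library totals, by DESeq2 and by the likelihood ratio test. The footprints of HNRNPA2B1 were at 1503 and 1954 CPM in WT against 2360 and 2392 CPM in XRN1-null cells (0.46 ± 0.14, FDR of edgeR 0.0423).

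Among the 5 members listed here as known for unproductive splicing of their own mRNA, 0 were called by the quasi-likelihood test of edgeR in mRNA, RPF or TE. The list does not cover all members with annotated NMD transcripts, so these counts hold for the 5 genes only. Other fits did call some of them. HNRNPL was called higher in mRNA by DESeq2, by the likelihood ratio test and with thinned RNA-Seq counts. HNRNPDL was called higher in TE with a culture block. Fits without a WT library left 1 WT sample in that assay and could not measure the WT spread. Their mRNA calls for HNRNPD went in opposite directions, so such calls of these genes do not settle a direction. HNRNPL changed by 0.43 ± 0.12 in mRNA (FDR of edgeR 0.0157), HNRNPDL by -0.20 ± 0.06 (FDR of edgeR 0.0259) and HNRNPD by -0.05 ± 0.11, and SNRPB and HNRNPA2B1 are given above. At an unadjusted p of edgeR below 0.05 the 5 genes had 1 higher and 2 lower in mRNA, against 34.0% and 36.0% of all genes. In RPF 3 were higher and 0 lower (16.2% and 16.8% of all genes), and in TE 1 was higher and 0 lower (8.76% and 14.6%). Transcripts annotated as NMD targets in GENCODE were present for 50.8% of the 63 annotated members and 49.1% of the 9552 genes of the table with an annotation, and the shares that follow are also of annotated genes. Of the 12 members that rose 6 had one, of the 14 that fell 2 did, and of those called in neither direction 64.9% did. Over the whole table the same order was seen for the called genes, with 59.5% of 2216 annotated genes that rose and 39.0% of 2186 that fell. A retained intron transcript was annotated for 63.5% of members, with 58.3% of those that rose, 42.9% of those that fell and 73.0% of those called in neither direction. Over all annotated genes the share was 62.0%, with 73.4% of those that rose and 53.8% of those that fell.

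The members that fell had the shorter median coding sequence, although the ranges overlapped. The median coding length was 372 nt (228 to 996) for the 14 that fell and 1822 nt (543 to 3912) for the 12 that rose. Across the 63 distinct members, the Spearman correlation of the mRNA change with the log2 of the deposited gene width was 0.56, and across all genes it was 0.35. The ratio of WT replicate 2 to WT replicate 1 also followed width among the members (0.53), and across all genes the value was 0.08. For the XRN1-null replicates the values were 0.07 among members and -0.18 across all genes. For footprints, the correlation of the change with width was 0.63 for members and 0.31 for all genes, and that of the ratio of WT replicate 2 to WT replicate 1 was 0.54 for members and 0.25 for all genes. These are descriptions across genes that share libraries and carry no test, and the part of the width in the mRNA changes was not tested.

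HNRNPA1 had the highest mRNA per length of the 64 members and was at 1615 and 1861 CPM in WT against 1418 and 1446 CPM in XRN1-null cells, a change of -0.28 ± 0.08 that did not pass (FDR of edgeR 0.0132). HNRNPA1L2, a copy of it on another chromosome without introns, was called higher in mRNA: 15.7 and 17.0 CPM in WT against 30.3 and 30.5 CPM in XRN1-null libraries (0.90 ± 0.08, FDR of edgeR 7.67e-05). Footprints on HNRNPA1L2 were at 860.0 and 1107 CPM in WT against 1019 and 1143 CPM in XRN1-null cells. Its mRNA counts were between 0.9147% and 2.14% of those of HNRNPA1, whereas its footprint counts were between 47.86% and 51.08% of those of HNRNPA1 in each of the 4 Ribo-Seq libraries.

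The coding sequences of both genes were compared to see how far reads could be told apart. HNRNPA1 (chr12:54673977-54680872, plus strand, GRCh37) has a coding sequence of 1116 nt in its GENCODE reference transcript, and HNRNPA1L2 (chr13:53216566-53217908, plus strand) one of 960 nt, of which 945 aligned bases are identical (98.4%). Footprints of 29 and 30 nt were selected in this study. Of the 1088 windows of 29 bases in the HNRNPA1 coding sequence, 50.2% occur without mismatch in that of HNRNPA1L2, and 90.1% occur elsewhere in the genome. The longest run without a difference in the alignment is 174 bases, longer than a footprint. How reads with several equal matches were assigned was not given in the sources used here, so the RPF and TE values of both genes are uncertain. The mRNA rise of HNRNPA1L2 has the same limit. Its mRNA counts were at most 2.14% of those of HNRNPA1, and 75.6% of its own windows occur elsewhere in the genome. The share of its mRNA reads that came from HNRNPA1 or other copies was not tested. The TE change of HNRNPA1L2 was -0.76 ± 0.18 (FDR of edgeR 0.0207). The row of HNRNPA1P10, which was left out, held 91.64% to 92.38% of the mRNA counts and 99.22% to 99.57% of the footprint counts of HNRNPA1.

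Shared sequence was not limited to HNRNPA1. For 24 of the 63 members with a coding sequence, 0% of the windows of 29 bases occurred elsewhere in the genome, and for 9 members over 50% did. The Sm ring held several of these, with 96.5% of the windows of SNRPG and 91.5% of those of SNRPE found elsewhere, and so did HNRNPA3 (97.4%) and HNRNPC (83.2%). In the rest of the ring the shares were 61.1% (SNRPD1), 42.2% (SNRPF), 15.6% (SNRPD2), 1.65% (SNRPB) and 0% (SNRPD3). The part of shared sequence in the Sm ring changes was not tested. For PRPF39, PRPF38B, SNRNP25, SNRNP48, SF3B5, PRPF6 and U2AF1L4 the share was 0%.

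In WT cells, the median member had a higher TE than the median gene. The log2 of footprint CPM over mRNA CPM had a median of 0.22 over the members and of -0.30 over all genes with a value. The Sm ring genes lay between 0.52 and 1.12 (median 0.70), above the 75th percentile of all genes (0.23). Values without error are means of 2 replicates, and the members are listed here without a test. The highest TE was that of HNRNPA1L2 (5.90 ± 0.17, SD, n = 2), whose footprint count is uncertain as described above. The same limit touches the Sm ring, where most windows of SNRPG, SNRPE and SNRPD1 (61.1%) occur elsewhere. Across the 63 members with a coding sequence, WT TE and the share of windows found elsewhere had a Spearman correlation of 0.39, a description over genes that share libraries, and the part of shared sequence in these TE values was not tested. SF3B6 (1.25 ± 0.08) and SNRPF (1.12 ± 0.02) followed, and the replicates of SF3B6 (1.19 and 1.31) lay above those of SNRPF (1.14 and 1.11). The lowest values were those of SNRNP25 (-2.38 ± 0.07), HNRNPUL1 (-1.57 ± 0.19) and SNRNP48 (-0.96 ± 0.41), of which the last had replicates at -1.25 and -0.67.

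**Figure D5:**
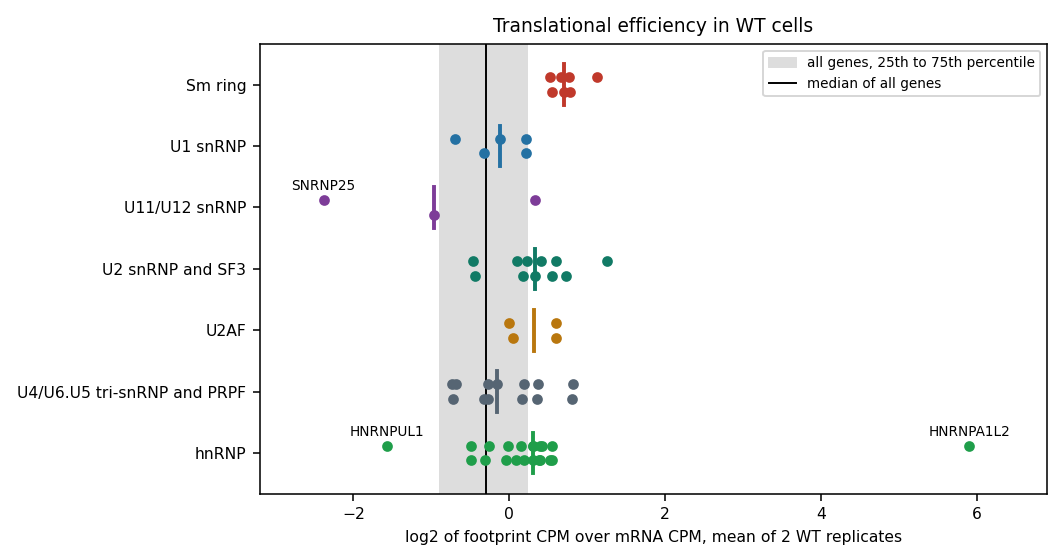
Log2 of footprint CPM over mRNA CPM in WT cells (horizontal axis), as the mean of 2 replicates, for each member by role group, with coloured bars at the group medians. The grey band spans the 25th to 75th percentile of all genes and the black line their median (-0.30). The 7 Sm ring genes lie to the right of the band, SNRNP25 (-2.38) and HNRNPUL1 (-1.57) to its left, and HNRNPA1L2 (5.90) far to the right.

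Per length, in CPM per kilobase of the deposited width, mRNA levels in WT cells spanned from 4.63 (U2AF1L4) to 809.9 (HNRNPA1). HNRNPA1 was followed by SNRPB (453 ± 27.5, SD, n = 2), HNRNPA2B1 (377.5 ± 70.4) and SNRPD2 (369.7 ± 25.5), and the last 2 of these did not differ beyond their spread. In the other groups the highest were SNRPC (164 ± 3.41) for U1, SNRNP25 (101 ± 6.88) for U11/U12, SF3B6 (234 ± 19.9) for U2 and SF3, U2AF1 (225 ± 4.65) for U2AF and PRPF19 (141 ± 15.1) for the tri-snRNP and PRPF group. Of the 3 U11/U12 members SNRNP25 had the highest mRNA per length, and it had the lowest WT TE of all 64 members.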

How the data were processed

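RNA-Seq and Ribo-Seq read counts per gene were taken as deposited. Per the methods of the authors, rRNA reads were removed with Bowtie2, the rest were mapped to hg19 (GRCh37) with Tophat2, footprints of 29 and 30 nt were selected, reads were counted per gene with QuasR, and genes above an FPKM of 2 were kept. Tool versions, the gene annotation, strand use and the treatment of reads with several matches were not given in the sources used here. Columns of the authors' own comparisons (fold changes, p-values, FDR and TE) were not used.

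Counts were fitted with edgeR 4.0.16 (R 4.3.3, limma 3.58.1) by the quasi-likelihood test within each assay, with TMM scaling and no filter, over all 10105 genes, and TE as the interaction over 8 libraries; RiboDiff, named by the study for TE, was not used. Standard errors are the log2 change divided by the square root of F. The scripts were tested on simulated counts with known changes. With 2 replicates per genotype, described as biological, an exact permutation test over samples could not reach the threshold, so only fits across all genes were used. Coding sequences came from GENCODE release 44 mapped to GRCh37 (63 of 64 members matched) and promoters from RefSeq on GRCh38.p14 (55 of 64), read with Python 3.11.15, pandas 2.3.3 and Biopython 1.88.

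Members and gene lists were chosen with earlier results of these data known. Named members were the 8 largest rises and 8 largest falls among called genes, all called in RPF or TE, the highest WT mRNA per length in each role, the 3 highest and 3 lowest WT TE, near copies and genes of known unproductive splicing, with the largest pathway change in each direction. Other members and pathway genes were named after their values were seen, to complete the role groups. SNRPN and HNRNPCL1 were not analysed here. The values of 1 member of the U1 group and a stretch of coding sequence are not reported here. Replicate numbers are shared by the groups, but no source says that a number marks a shared culture or day across genotypes. Alternatives were RLE factors, library totals, DESeq2 1.42.0, the likelihood ratio test, a replicate block, a culture block for TE, a minimum of 10 counts, an FDR of 0.05, random thinning of the RNA-Seq counts to footprint depth, and fits that each lacked a library.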

Additional observations from a re-analysis of the deposited data

How the results depend on the processing

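The 26 mRNA calls and 2 TE calls kept their sign in every alternative run. For the mRNA calls the genotypes did not overlap, so a fit with a library left out could hardly reverse the sign. With each library left out in turn, the members called higher in mRNA ranged from 8 to 30 and those called lower from 7 to 28, those called in RPF from 0 to 28 higher and from 0 to 7 lower, and those called in TE from 0 to 1 higher and from 0 to 3 lower. Of the 12 members that rose in mRNA, 8 were called with every library left out in turn and 11 in all 7 other settings, and of the 14 that fell, 7 and 10. Where leaving out a library left a genotype with a single sample, that sample was assumed to vary like the other group. An FDR of 0.05 gave 18 members higher and 23 lower in mRNA, 10 higher and 3 lower in RPF, and 0 higher and 3 lower in TE. The likelihood ratio test gave 4 higher and 2 lower in RPF. With the replicate number as a block (replicate block), 17 members were called higher and 15 lower in mRNA, 11 higher and 2 lower in RPF, and 0 higher and 2 lower in TE. The 11 in RPF included 6 hnRNP genes (HNRNPH1, HNRNPH2, HNRNPH3, HNRNPM, HNRNPR and HNRNPU), and the block also called HNRNPL, HNRNPLL, HNRNPM, PRPF4B and SNRNP200 higher and PRPF19 lower in mRNA. Deviations of samples with the same number correlated at 0.173 in RNA-Seq and 0.0608 in Ribo-Seq, and with 2 pairs per assay these values do not settle whether the numbers pair the samples. A culture block, which ties both assays of a genotype and number together, gave 3 members higher in TE (HNRNPA1, HNRNPA3 and HNRNPDL) and 3 lower (HNRNPA1L2, PRPF38B and PRPF39). The cause of these differences was not tested. In Ribo-Seq, 3 members had under 50 counts in a library. With the RNA-Seq counts thinned to footprint depth, 13 members were called higher and 12 lower in mRNA, against 0 and 0 in RPF. The shares of all genes called in the alternative runs are not given here, so their counts describe the members only.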
